A study of Mus musculus with 30 samples.

Results

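Retinoic acid is a signalling form of vitamin A, and 9 genes that make it, break it down, take up its precursor, bind it or sense it are described here across mouse stem cells, endoderm made from them and embryo cells. They are Rdh10, Dhrs3 and Aldh1a2 (synthesis and its reversal), Cyp26a1 and Cyp26b1 (breakdown), Stra6, Crabp1 and Crabp2 (uptake and binding) and Rarb (a receptor). They were chosen by name, as genes of 1 pathway, and are 9 of the 19938 genes that had a probe set of their own on the arrays. Each of the 9 had exactly 1 such probe set.

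The series holds 30 arrays in 10 groups of 3 biological replicates. Embryo cells came from Swiss Webster embryos at E8.25: a foregut endoderm population sorted as ENDM1+/Epcam+/SSlo (SSlo is written as in the labels), and a comparison population that was Epcam+ and lacked ENDM1. Cultured cells were the iPS clones ST5 and ST8 and an ES cell line, all of strain C57BL/6x129SvJae, taken at day 5 of endoderm differentiation (sorted ckit+/Sox2dim) or at day 0, undifferentiated (sorted Sox2bright). iPS cells are body cells reprogrammed to a state like that of ES cells, and each of ST5 and ST8 is a single clone, so a difference between a clone and ES cells does not extend to iPS cells in general. ST5, ST8 and ES cells at both days filled the 18 unamplified arrays, labelled with the Affymetrix kit. The other 12 arrays carried RNA amplified with the NuGEN Pico system and labelled with its Encore module: foregut, ENDM1-negative, ES day 5 and ES day 0. Levels were compared only within each labelling.

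Cells take up retinol through the membrane protein Stra6, which receives it from the carrier Rbp4. Rdh10 oxidises retinol to retinal, Dhrs3 turns retinal back into retinol, and Aldh1a2 oxidises retinal irreversibly to retinoic acid. Crabp2 carries retinoic acid to nuclear receptors, Crabp1 holds it in the cytoplasm, and the cytochromes Cyp26a1 and Cyp26b1 inactivate it. The receptors, Rarb among them, bind DNA with a retinoid X receptor, and Rarb, Cyp26a1, Dhrs3, Stra6 and Crabp2 are known targets of retinoic acid. In the early embryo, Aldh1a2 of the mesoderm supplies retinoic acid to the hindbrain, somites and foregut, while Cyp26a1 clears it at both ends of the body axis.

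The receptors recognise pairs of 6-base sites set in tandem. The promoter windows of RefSeq (GRCm38.p6, 250 bases before to 50 after each gene start) were searched on both strands for direct repeats of 4 sites in any combination, which were the consensus AGGTCA and the variants written as AGTTCA, then as GGGTCA and last as GGTTCA, with 1, 2 or 5 bases between them. Windows were at hand for 7 of the 9 genes, 12 windows in all; Rdh10 and Crabp2 had none. Of the 7 genes, Cyp26a1 and Rarb held a repeat, both with a spacing of 5 bases, and the windows of the other 5 held none at any of the 3 spacings. A repeat of spacing 5 occurred in 32 of 32851 windows (0.0974%), one of spacing 1 in 73 (0.222%) and one of spacing 2 in 88 (0.268%). The repeats of spacing 5 belonged to 31 genes, of which 11 were measured on these arrays. The sequences of Cyp26a1 and Rarb are printed because each held a repeat. They are the 250 bases before the gene start, on the gene's own strand, with both sites of the repeat in capitals; the first lies at chr19:37697558-37697807 on the plus strand and the second at chr14:16575477-16575726 on the minus strand.
Cyp26a1: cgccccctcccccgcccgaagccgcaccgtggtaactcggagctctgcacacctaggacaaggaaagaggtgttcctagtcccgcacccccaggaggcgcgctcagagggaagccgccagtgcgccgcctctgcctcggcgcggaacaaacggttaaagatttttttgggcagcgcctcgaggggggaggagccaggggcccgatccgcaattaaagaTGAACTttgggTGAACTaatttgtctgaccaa
Rarb: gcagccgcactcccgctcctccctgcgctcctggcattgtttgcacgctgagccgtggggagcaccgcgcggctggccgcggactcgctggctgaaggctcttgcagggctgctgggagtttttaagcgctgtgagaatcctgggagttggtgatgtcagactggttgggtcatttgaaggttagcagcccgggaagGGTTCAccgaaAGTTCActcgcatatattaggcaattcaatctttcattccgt
The Cyp26a1 repeat, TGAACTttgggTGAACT, reads as a pair of AGTTCA on the opposite strand and spans bases -32 to -16 from the start. In Rarb the repeat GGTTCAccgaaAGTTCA spans bases -53 to -37. A match describes letters in these windows and says nothing of binding, which was not measured. Both genes are known targets of retinoic acid, so their matches are no test against the rate over all windows.

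The median log2 value per array ran from 5.496 to 5.574 on the unamplified arrays and from 5.695 to 5.74 on the amplified ones. Markers followed the sorts: all 10 definitive endoderm markers rose and at least 9 of 10 pluripotency markers fell by day 5 in each line (limma, adjusted p under 0.05). The day 5 cultures were not uniform. Nanog, a pluripotency gene, read 5.96, 6.58 and 5.79 in ST5, 9.93, 6.85 and 9.85 in ST8 and 8.18, 9.24 and 9.24 in ES cells at day 5 (replicates 1, 2 and 3). ST8 replicate 2 and ES replicate 1 thus stood apart from the other 2 arrays of their groups, as did amplified ES day 5 replicate 1 (7.80, against 9.32 and 9.29). Results that rest on these 3 arrays are given with and without them. Deviations of same-numbered ES day 5 arrays went together across the 2 labellings, with correlations across genes of 0.65, 0.447 and 0.285. The labels do not say whether they share RNA, so the amplified ES arrays are not counted as an independent repeat.

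In all 3 lines, Cyp26a1, Rarb and Stra6 rose between day 0 and day 5, while Crabp1 and Aldh1a2 fell. Cyp26a1 had an 8.19-fold higher mean at day 5 in ST5, 4.56-fold in ST8 and 27.0-fold in ES cells. The ES day 0 arrays lay near or below the array median, so the ES fold is only a rough size. Rarb was higher at day 5 by 4.35, 3.47 and 3.36 on the log2 scale in the same lines; its day 0 arrays were all below the array median, so no fold is given for it. Dhrs3 rose in ST8 and ES cells, Crabp2 fell in ST5 and, under some of the alternatives, in ES cells, and Rdh10 and Cyp26b1 passed the test in no line. At an adjusted p under 0.05 (limma, Benjamini-Hochberg over all 19938 genes), 3 of the 9 genes rose and 3 fell in ST5, where 47.9% of all genes were called, 23.2% higher and 24.8% lower. In ST8, 4 rose and 2 fell, with 40.5% of all genes called, 21% higher and 19.5% lower. In ES cells 4 rose and 2 fell, with 38.6% called, 18.9% higher and 19.7% lower. With shares of all genes this large, the counts say less than the sizes. Differences are in log2 units throughout, with the standard error (SE) of the fit after the ± sign and n = 3 arrays a group. Where arrays are said not to overlap, this only describes the values, since the share of all genes without overlap is not given.

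**Figure D1:**
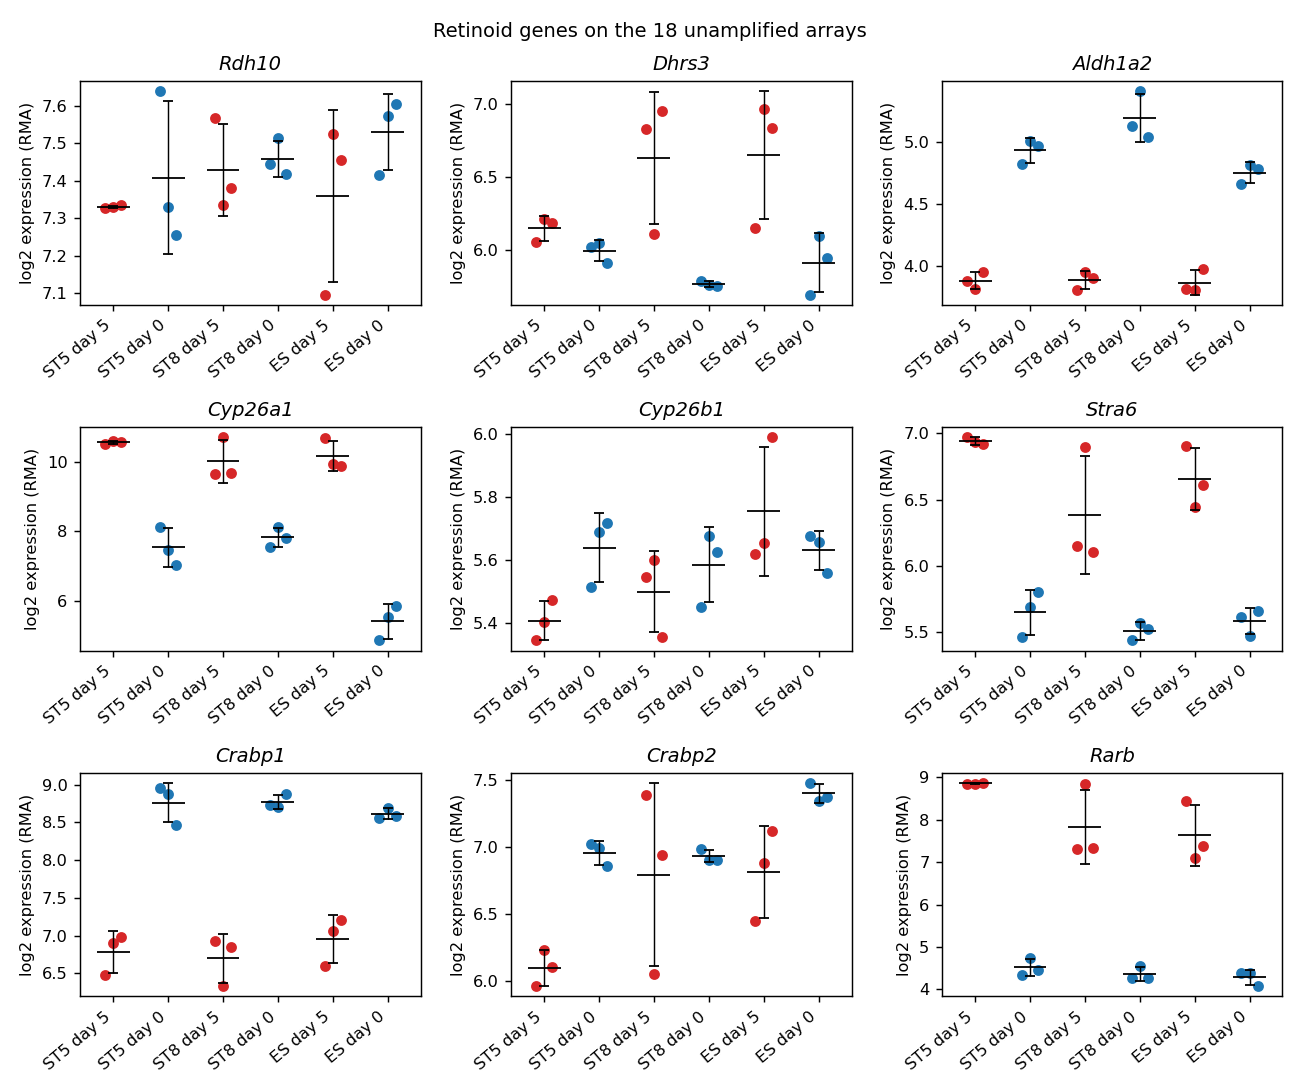
Log2 expression (vertical axis) of the 9 genes on the 18 unamplified arrays, with day 5 in red and day 0 in blue for ST5, ST8 and ES cells. Points are arrays, the long line is the mean and the bars are ± 1 SD (n = 3). Cyp26a1, Rarb and Stra6 are high at day 5 in every line, and Crabp1 and Aldh1a2 are low.

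Among the genes of synthesis, Aldh1a2, which makes retinoic acid, read 3.88, 3.81 and 3.95 at day 5 and 4.82, 5.01 and 4.97 at day 0 in ST5. In ST8 it read 3.81, 3.95 and 3.90 at day 5 and 5.13, 5.42 and 5.04 at day 0. In ES cells it read 3.81, 3.80 and 3.98 at day 5 and 4.66, 4.82 and 4.79 at day 0. Day 5 arrays were below day 0 arrays in every line, by -1.06 ± 0.09 in ST5 (adjusted p = 8.55e-08), -1.31 ± 0.09 in ST8 (1.09e-08) and -0.89 ± 0.09 in ES cells (9.25e-07). None of the 18 arrays placed Aldh1a2 above the array median, so it was dim at both days, and such low signals limit what a fall can show. The markers of fibroblasts, which can come with feeder layers, moved the same way: 14 of 17 fell in ST5, 16 in ST8 and 14 in ES cells, and none rose. Their mean per array was 5.662 to 6.118 at day 5, against 7.36 to 7.757 at day 0. The part of these cells in the fall of Aldh1a2 was not tested, and in such bulk samples fewer cells of a type and less RNA per cell cannot be told apart.

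Dhrs3, which returns retinal to retinol, read 6.82, 6.11 and 6.95 at day 5 and 5.79, 5.75 and 5.75 at day 0 in ST8. In ES cells the values were 6.14, 6.96 and 6.83 at day 5 and 5.69, 6.09 and 5.94 at day 0. In ST5 they were 6.05, 6.21 and 6.18 at day 5 and 6.02, 6.05 and 5.91 at day 0. In ST8 and ES cells every day 5 array lay above every day 0 array, and in ST5 the lowest day 5 array was level with the highest day 0 array. The rise of 0.86 ± 0.20 in ST8 (adjusted p = 0.00211) and of 0.74 ± 0.20 in ES cells (adjusted p = 0.00705) passed the test, and the difference of 0.15 ± 0.20 in ST5 (adjusted p = 0.566) did not. Rdh10, which makes retinal, differed between days by -0.08 ± 0.11 in ST5, -0.03 ± 0.11 in ST8 and -0.17 ± 0.11 in ES cells (adjusted p from 0.259 to 0.871). It lay above the array median on all 18 arrays, with group means from 7.33 in ST5 at day 5 to 7.53 in ES cells at day 0, and the arrays of neighbouring groups in that order overlapped.

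Of the breakdown enzymes, Cyp26a1 read 10.52, 10.61 and 10.56 at day 5 in ST5 and 8.12, 7.46 and 7.01 at day 0. ST8 gave 9.64, 10.71 and 9.67 at day 5 and 7.55, 8.11 and 7.80 at day 0. ES cells gave 10.68, 9.94 and 9.88 at day 5 and 4.85, 5.54 and 5.84 at day 0. No day 5 array of any line came near a day 0 array, and ES cells at day 0 were the lowest group. The differences were 3.03 ± 0.32 in ST5 (adjusted p = 7.8e-07), 2.19 ± 0.32 in ST8 (3.68e-05) and 4.76 ± 0.32 in ES cells (8.55e-09). Cyp26b1, the second enzyme, had group means between 5.41 and 5.75, near the array median, and differences of -0.23 ± 0.10 in ST5, -0.09 ± 0.10 in ST8 and 0.12 ± 0.10 in ES cells. None of these 3 passed (adjusted p = 0.0661, 0.557 and 0.375). In ST5 the value passed without day 0 replicate 1 (adjusted p = 0.0357), with only the 2 groups in the fit (0.0361) and with all 30 arrays in 1 fit (0.0422).

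Rarb, the receptor, read 8.86, 8.85 and 8.87 at day 5 in ST5, against 4.34, 4.75 and 4.45 at day 0. It read 7.31, 8.84 and 7.33 at day 5 in ST8, against 4.26, 4.55 and 4.26 at day 0. ES cells had 8.45, 7.09 and 7.38 at day 5, against 4.38, 4.38 and 4.07 at day 0. Rarb was below the array median on all 9 day 0 arrays and above it on all 9 day 5 arrays. Such low day 0 signals limit how large a rise can show. The rises of the lines are not ranked here, and tests between them given below carry the same limit. The differences were 4.35 ± 0.34 in ST5 (adjusted p = 3.21e-08), 3.47 ± 0.34 in ST8 (5.84e-07) and 3.36 ± 0.34 in ES cells (9.22e-07). Stra6, the retinol importer, was higher at day 5 by 1.29 ± 0.16 in ST5 (5.48e-06), 0.88 ± 0.16 in ST8 (0.000369) and 1.07 ± 0.16 in ES cells (6.11e-05). Its arrays ran from 6.10 to 6.97 at day 5 and from 5.43 to 5.80 at day 0, with no overlap.

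Of the binding proteins, Crabp1 fell in every line and Crabp2 passed in ST5 as fitted. Crabp1 read 6.47, 6.90 and 6.98 at day 5 in ST5, against 8.95, 8.87 and 8.46 at day 0. It read 6.92, 6.33 and 6.85 in ST8, against 8.73, 8.71 and 8.88, and 6.59, 7.06 and 7.20 in ES cells, against 8.56, 8.70 and 8.58. Every day 5 array was below every day 0 array, and the differences were -1.98 ± 0.18 in ST5 (adjusted p = 1.47e-07), -2.07 ± 0.18 in ST8 (1.36e-07) and -1.66 ± 0.18 in ES cells (1.67e-06). Of all genes, Bgn, Rai14 and Dcn had the most similar profile to Crabp1 over the 18 arrays (Pearson r of 0.988, 0.987 and 0.986), and Bgn and Dcn encode proteoglycans of connective tissue. Over the 12 amplified arrays they were Ddx18, Ddx54 and Znrd2 (r from 0.983 to 0.987). Crabp1 was highest there in ENDM1-negative cells, whose fibroblast markers had array means of 5.628 to 5.794. In amplified ES cells these means were 5.678 to 5.828 at day 5 and 6.772 to 6.976 at day 0, and 13 of the 17 markers fell. Crabp1 ran from 6.89 to 7.93 at day 5 and from 9.45 to 9.95 at day 0 on the same ES arrays. The part of fibroblasts in the fall of Crabp1 was not tested. Crabp2 read 5.96, 6.23 and 6.10 at day 5 in ST5, against 7.02, 6.99 and 6.86 at day 0, a fall of 0.86 ± 0.23 (adjusted p = 0.00525). Its difference was -0.14 ± 0.23 in ST8 (0.704) and -0.58 ± 0.23 in ES cells (0.0571). The ES value passed with ES day 5 replicate 3 left out (adjusted p = 0.0321) and when the 3 arrays that stood apart were left out (-0.40, adjusted p = 0.00978). It also passed with all 30 arrays in 1 fit (0.0466), with only the groups compared (0.0232), after further quantile normalization (0.0383), with a common median (0.0261) and with dim genes left out (0.042). The fall of Crabp2 was thus not shown to be particular to ST5: the difference between the ST5 and ES changes did not pass with all arrays in.

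**Figure D2:**
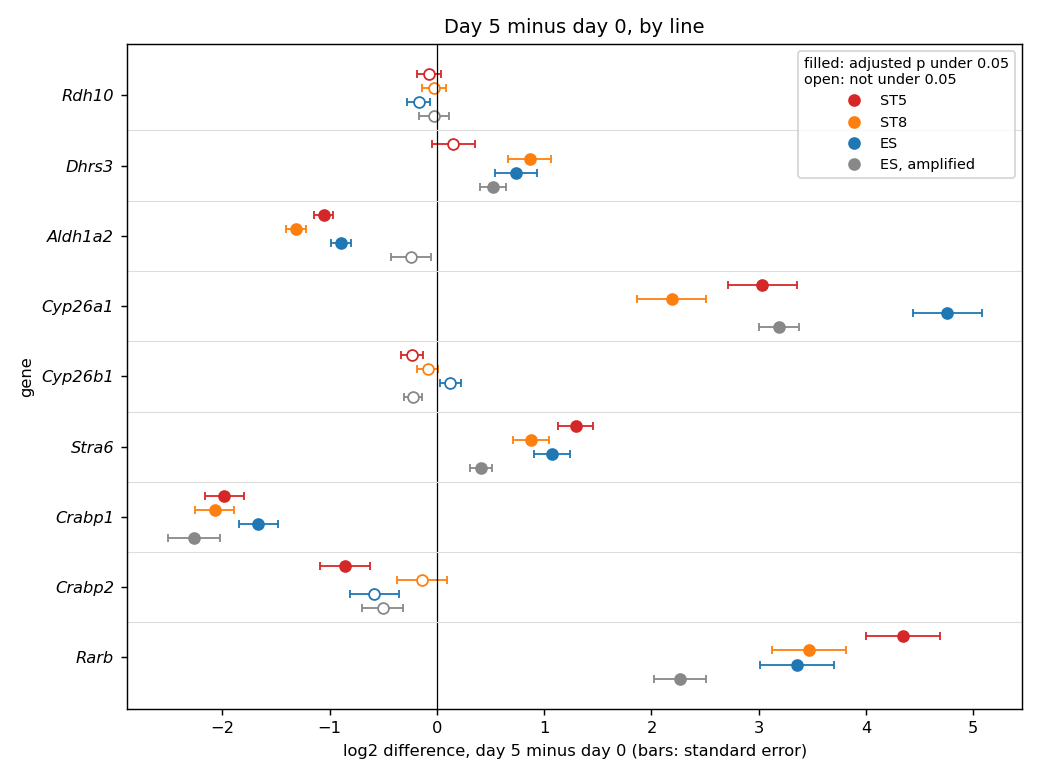
Log2 difference, day 5 minus day 0 (horizontal axis), with its standard error, for each gene in ST5, ST8, ES cells and the amplified ES arrays. Filled points passed an adjusted p of 0.05 and open points did not. Cyp26a1 and Rarb lie farthest to the right and Crabp1 farthest to the left in every line.

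The amplified ES arrays, drawn from cells of the same 2 sorts, gave 4 of 9 genes higher and 1 lower at day 5, where 26.9% of all genes were called, 13% higher and 13.8% lower. Cyp26a1 read 8.17, 7.63 and 7.69 at day 5, against 5.12, 4.43 and 4.38 at day 0, a rise of 3.19 ± 0.19 (adjusted p = 8.1e-08), with the day 0 arrays below the array median for this gene and for Rarb. Rarb rose by 2.27 ± 0.24 (1.76e-05), Dhrs3 by 0.52 ± 0.12 (0.00443) and Stra6 by 0.41 ± 0.10 (0.00778), and Crabp1 fell by 2.27 ± 0.24 (1.84e-05). These are the same 5 directions as on the unamplified ES arrays. Aldh1a2 differed by -0.24 ± 0.19 (adjusted p = 0.401) with amplification, and was above the array median on 1 of the 12 amplified arrays. Crabp2 differed by -0.50 ± 0.19 (0.0726), and passed without ES day 5 replicate 3 (0.0106).

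At day 0 both clones had more Cyp26a1 transcript than ES cells. The values of 8.12, 7.46 and 7.01 in ST5 and of 7.55, 8.11 and 7.80 in ST8 all lay above the 4.85, 5.54 and 5.84 of ES cells. The difference was 2.12 ± 0.32 for ST5 (adjusted p = 0.00124) and 2.41 ± 0.32 for ST8 (adjusted p = 0.000331), with the ES arrays near or below the array median. Both comparisons use the same ES arrays. It was the only 1 of the 9 genes called in ST5, where 3.22% of all genes were called, 1.39% higher. ST8 had 2 called, where 3.55% of all genes were, 1.87% higher: Cyp26a1, and Aldh1a2, which was 0.44 ± 0.09 higher (adjusted p = 0.0121). Leaving out ES day 0 replicate 1 ended the Aldh1a2 call (adjusted p = 0.0699), as did leaving out ST8 day 0 replicate 2 (0.0595) or fitting all 30 arrays together (0.113). The other genes differed from ES cells at day 0 by -0.47 to 0.24 and did not pass, Crabp2 being the lowest at -0.44 ± 0.23 in ST5 and -0.47 ± 0.23 in ST8. With only the groups compared in the fit, Crabp2 passed in both (adjusted p = 0.0119 and 0.00315).

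Genes of the primitive streak, the site where endoderm and mesoderm arise, also differed at day 0. Of 9 such markers, 6 were higher in ST5 and 3 in ST8 than in ES cells, and none was lower. Their mean per array was 6.195 to 6.875 in ST5 and 6.274 to 6.385 in ST8, against 5.558 to 5.733 in ES cells. Of 10 definitive endoderm markers, 3 were higher in ST5 and 2 in ST8. Foxa2, an endoderm factor and 1 of the 3 genes most like Cyp26a1 over the 18 arrays, read 7.51, 6.94 and 6.43 in ST5 and 6.75, 6.78 and 6.81 in ST8, against 5.51, 5.94 and 5.65 in ES cells. That likeness was computed on these same day 0 arrays among others, so the Foxa2 values follow from it and are no separate support. The part of these genes' cells in the Cyp26a1 level was not tested. Between the clones themselves, ST8 and ST5 at day 0, limma called 0 of the 9 genes, where 0.0652% of all genes were called. Of the 9, 1 had an unadjusted p under 0.05, a count given without the share of all genes and not read as a result.

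By day 5 the Cyp26a1 differences from ES cells were 0.40 ± 0.32 in ST5 (adjusted p = 0.392) and -0.16 ± 0.32 in ST8 (adjusted p = 0.853), and neither passed. Its rise over the 5 days was smaller in the clones than in ES cells. The ES day 0 signals, near or below the array median, limit how exactly such differences between rises can be read. The rise in ST5 minus that in ES cells was -1.72 ± 0.46 (adjusted p = 0.0376), and the rise in ST8 minus that in ES cells was -2.57 ± 0.46 (adjusted p = 0.0112). With all arrays in the fit it was the only 1 of the 9 genes called in either test, where 5.58% (2.28% lower) and 0.838% (0.507% lower) of all genes were called. The ST8 value passed under each alternative tried. The ST5 value was lost with the replicate number as a block (adjusted p = 0.0518), with an intensity trend and robust spread (0.0579), and without any single 1 of 9 arrays. These were ES day 5 replicates 2 and 3, ES day 0 replicates 1 and 2, ST5 day 0 replicates 1 and 2, and all 3 ST5 day 5 replicates (adjusted p from 0.0581 to 0.0947). Leaving out ES day 5 replicate 1 alone added Dhrs3, at -0.83 (0.0272), and Rarb, at 1.39 (0.0366), to the genes whose change in ST5 differed from that in ES cells. With all 3 arrays that stood apart left out, 6 genes passed there, where 5282 of all genes did (1112 with them in): Cyp26a1, Dhrs3 (0.00017), Rarb (1.59e-05), Cyp26b1 at -0.42 (0.0323), Crabp2 at -0.46 (0.0382) and Stra6 at 0.35 (0.0467). For ST8 minus ES cells, Crabp2 was added, at 0.82 without ST8 day 5 replicate 2 alone (0.0429) and at 0.63 without the 3 arrays (0.03), where 1231 of all genes passed (167 with them in). The day 0 signals of Rarb, below the array median in every line, limit what a difference between its rises can show.

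At day 5, 1 of the 9 genes was higher and 2 were lower in ST5 than in ES cells, where 23.3% of all genes were called, 11.6% higher and 11.8% lower. Rarb was 1.22 ± 0.34 higher (adjusted p = 0.0195), with 8.86, 8.85 and 8.87 in ST5 above the 8.45, 7.09 and 7.38 of ES cells. Crabp2 was lower, by -0.72 ± 0.23 (adjusted p = 0.035), and Cyp26b1 by -0.35 ± 0.10 (adjusted p = 0.021). Each of these calls hung on single arrays. Rarb was lost without ES replicate 2 or 3 (adjusted p = 0.103 and 0.0886) or any ST5 replicate (0.0504 to 0.0549). Crabp2 was lost without the same 5 arrays (0.057 to 0.164), and Cyp26b1 without ES replicate 3 (0.124) or ST5 replicate 1 or 2 (0.0761 and 0.0551). The Cyp26b1 call also ended with only the groups compared in the fit (0.0691), after further quantile normalization (0.0812) and with a common median (0.0597). Between ST8 and ES cells at day 5 limma called 0 of the 9 genes, where 0.958% of all genes were called. Of the 9, 1 had an unadjusted p under 0.05, a count given without the share of all genes and not read as a result. Between ST8 and ST5, Stra6 alone was called, lower by -0.56 ± 0.16 in ST8 (adjusted p = 0.0342), where 14.6% of all genes were called, 6.3% lower. That call was lost without ST8 replicate 1 (0.164) or 3 (0.185), or without any ST5 replicate (0.0801 to 0.0928), and with only the groups compared in the fit (0.177).

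Within the day 5 groups of ST8 and ES cells, most of the 9 genes were spread over the same arrays. On ST8 replicate 2, the array low in Nanog, Rarb was 8.84, against 7.31 and 7.33 on the other 2 ST8 arrays. Cyp26a1 was 10.71 there, against 9.64 and 9.67, and Stra6 6.90, against 6.15 and 6.10. Dhrs3 was 6.11, against 6.82 and 6.95, and Crabp2 6.05, against 7.39 and 6.94. ES replicate 1 went the same way, with Rarb at 8.45, Cyp26a1 at 10.68, Stra6 at 6.91, Dhrs3 at 6.14 and Crabp2 at 6.45. For these 5 genes both arrays lay closer to the ST5 arrays than did the other 2 arrays of their own group. Crabp1 was also low there, at 6.33 on ST8 replicate 2, against 6.92 and 6.85, and at 6.59 on ES replicate 1, against 7.06 and 7.20, while ST5 had 6.47, 6.90 and 6.98. Pou5f1, also a pluripotency gene, was 7.25 on ST8 replicate 2, against 10.48 and 10.43, and 8.41 on ES replicate 1, against 9.64 and 9.61. Amplified ES replicate 1 had 8.37 for Rarb, against 7.22 and 7.29, and 8.17 for Cyp26a1, against 7.63 and 7.69. It had 8.37 for Crabp2, against 8.93 and 9.28, 6.89 for Crabp1, against 7.66 and 7.93, and 6.29 for Dhrs3, against 6.68 and 6.58. Stra6, at 6.86, was level with replicate 3 (6.72 and 6.86 on the other 2 arrays). Rdh10 was also lowest on the arrays that stood apart. It read 7.336 on ST8 replicate 2, against 7.567 and 7.381, and 7.096 on ES replicate 1, against 7.525 and 7.456. Amplified ES replicate 1 had 6.79 for Rdh10, against 7.191 and 7.116.

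**Figure D3:**
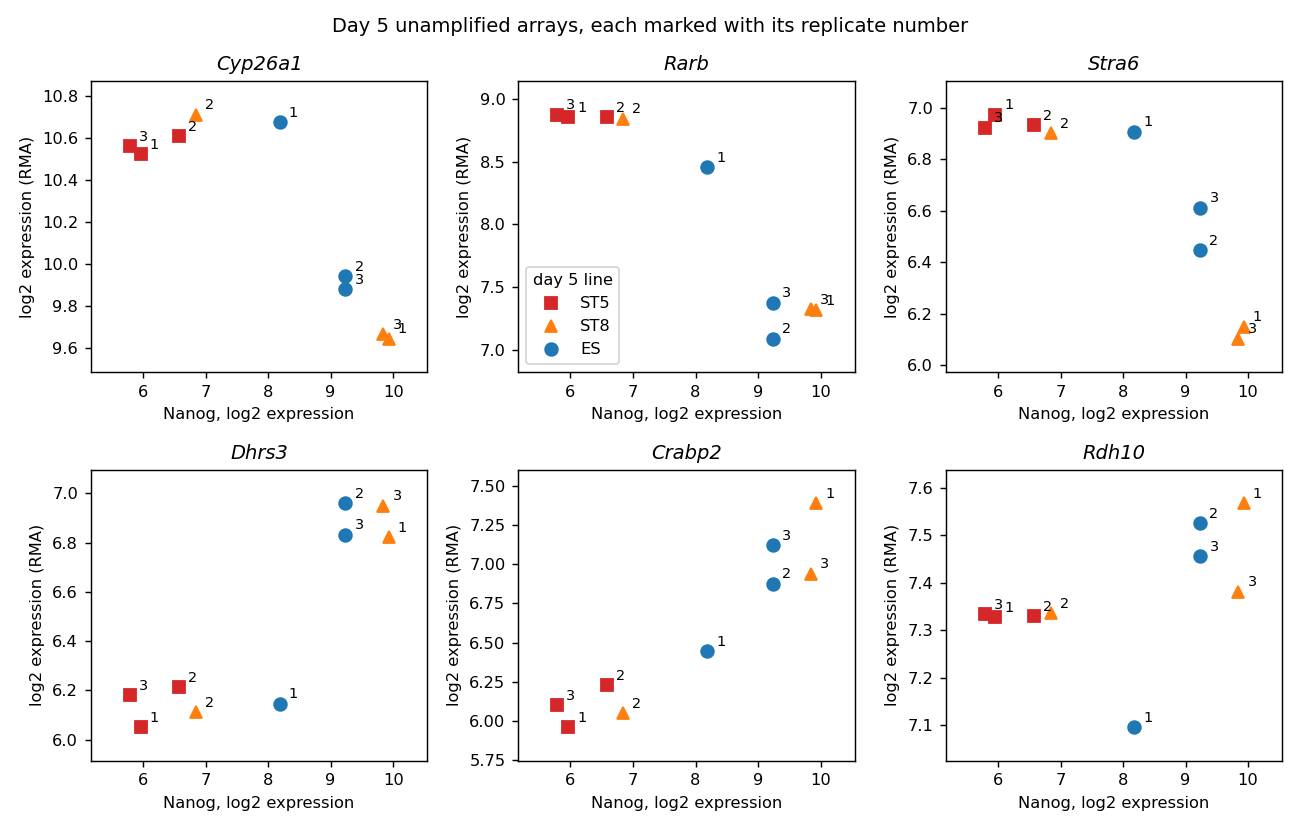
Log2 expression of 6 genes (vertical axis) against that of Nanog (horizontal axis) on the 9 unamplified day 5 arrays of ST5, ST8 and ES cells, each marked with its replicate number. ST8 replicate 2 and ES replicate 1 lie with or toward the ST5 arrays for Cyp26a1, Rarb, Stra6, Dhrs3 and Crabp2. Rdh10 is shown as a gene that did not pass between days, though each of these arrays was the lowest of its group for it.

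Without ST8 replicate 2, ES replicate 1 and amplified ES replicate 1, a choice made after the data were seen, more of the genes passed between ST5 and the other lines. The ES and ST8 arrays left out are those closest to ST5 for these genes, so leaving them out widens the differences by construction. Against ES cells at day 5, 5 genes were called in place of 3, where 7692 of all genes were in place of 4653, among them Dhrs3 at -0.75 (adjusted p = 1.44e-05) and Stra6 at 0.41 (adjusted p = 0.00181). ST8 minus ST5 then had 5 called in place of 1, where 6625 of all genes were in place of 2909, with Rarb at -1.54 (1.09e-07), Cyp26a1 at -0.91 (0.0148), Crabp2 at 1.07 (2.15e-06) and Dhrs3 at 0.74 (1.65e-05). ST8 minus ES had 1, Stra6 at -0.40 (0.0209), where 1796 of all genes were called in place of 191. The ES and ST8 cultures kept on this choice are those with the highest Nanog at day 5, so it also makes those groups more alike within themselves.

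In the embryo, the 2 sorted populations differed in receptor, uptake and binding genes. Rarb and Stra6 were higher in foregut than in ENDM1-negative cells, and Crabp1 and Crabp2 lower, which makes 4 of the 9 genes called where 8.14% of all genes were, 3.71% higher and 4.43% lower. Rarb read 8.80, 8.79 and 8.98 in foregut, against 7.64, 7.04 and 7.26 in ENDM1-negative cells, a difference of 1.55 ± 0.24 (2.92-fold, adjusted p = 0.00196). Crabp1 read 9.56, 9.01 and 9.74 in foregut, against 11.14, 11.18 and 11.43, a difference of -1.81 ± 0.24 (3.52-fold lower, adjusted p = 0.000669). No arrays of the 2 populations overlapped for either gene, which describes the values and adds no test.

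Stra6 read 7.28, 7.30 and 7.56 in foregut, against 6.95, 6.98 and 6.89 in ENDM1-negative cells, a difference of 0.44 ± 0.10 (adjusted p = 0.018). Crabp2 read 10.56, 10.45 and 10.79 in foregut, against 11.37, 11.25 and 11.55, a difference of -0.79 ± 0.19 (adjusted p = 0.0245). The arrays did not overlap here either, yet both calls depended on single arrays. Stra6 was lost without ENDM1-negative replicate 1 (adjusted p = 0.0516) or 3 (0.0625) or foregut replicate 3 (0.0732). Crabp2 was lost without ENDM1-negative replicate 1 (0.0652) or 3 (0.0883) or foregut replicate 1 (0.082) or 2 (0.0831). The differences of the breakdown enzymes did not pass, Cyp26a1 at 0.13 ± 0.19 and Cyp26b1 at -0.11 ± 0.08 (adjusted p = 0.74 and 0.481). Of the synthesis genes, Aldh1a2 differed by -0.45 ± 0.19 (0.17), Rdh10 by -0.31 ± 0.14 (0.216) and Dhrs3 by -0.20 ± 0.12 (0.337).

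Markers of other cell types moved with the sort. Of the visceral endoderm and yolk sac markers, 8 of 9 were higher in foregut than in ENDM1-negative cells, with array means of 7.915 to 9.382, against 5.849 to 6.713. Of the definitive endoderm markers 8 of 10 were higher. Of the endothelial markers 7 of 9 were lower (array means of 5.085 to 5.187 in foregut, against 6.06 to 6.636), as were 5 of 9 surface ectoderm and neural crest markers and 2 of 10 paraxial mesoderm markers. The part of these cells in the values of Rarb, Stra6, Crabp1 and Crabp2 was not tested.

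**Figure D4:**
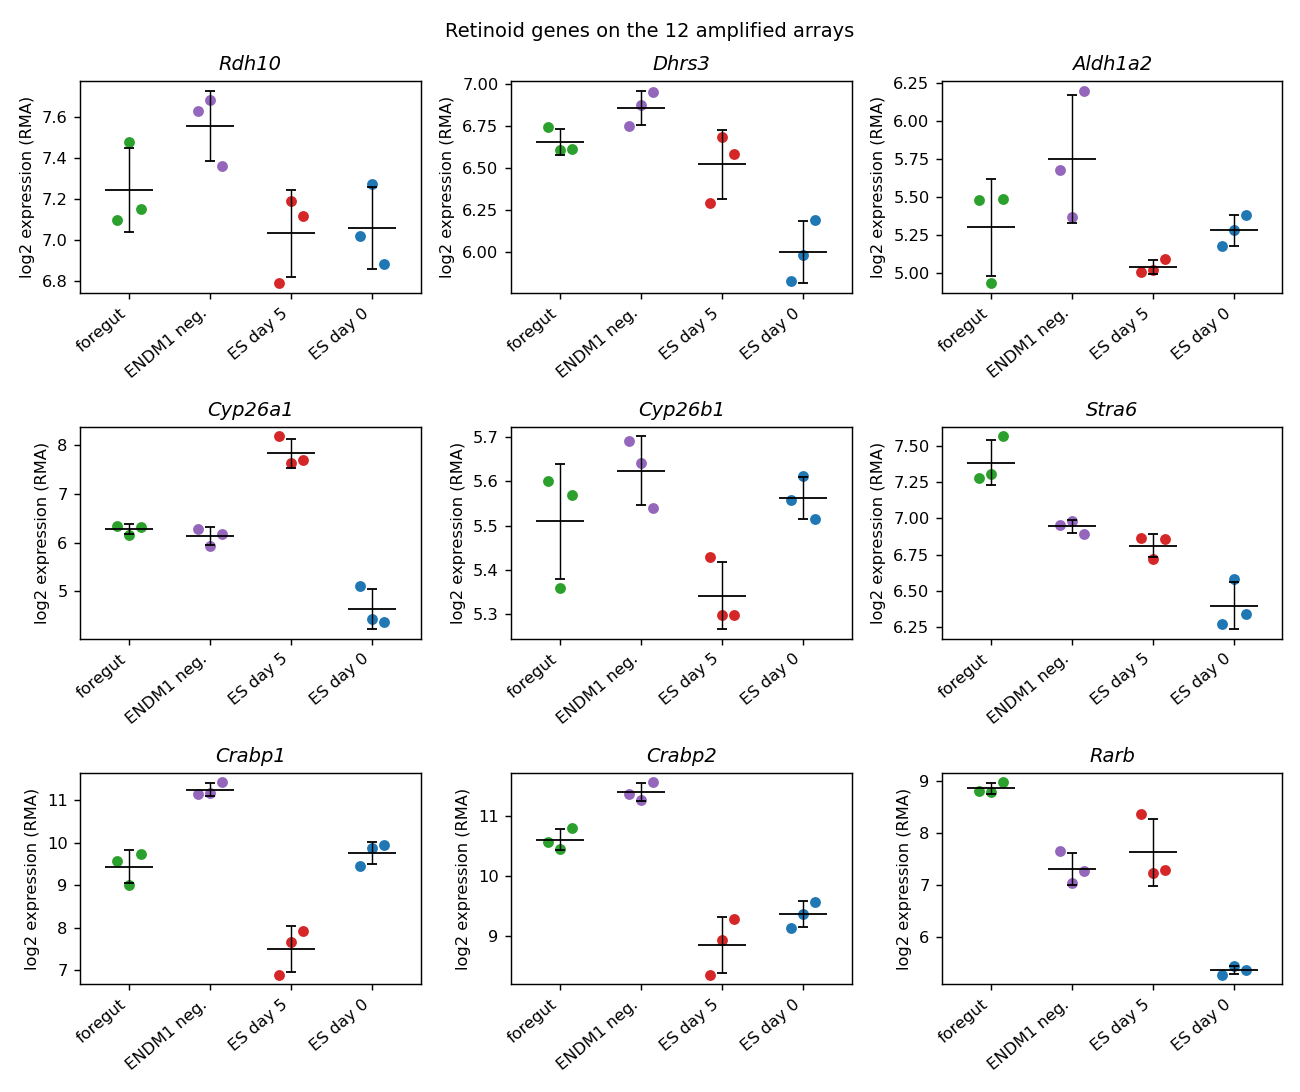
Log2 expression (vertical axis) of the 9 genes on the 12 amplified arrays, in foregut, ENDM1-negative, ES day 5 and ES day 0 cells. Points are arrays, the long line is the mean and the bars are ± 1 SD (n = 3). Rarb and Stra6 are highest in foregut, Crabp1 and Crabp2 in ENDM1-negative cells and Cyp26a1 in ES cells at day 5.

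Set against ES cells at day 5, both embryo populations had less Cyp26a1 and more of the 2 binding proteins. Strain, extraction kit (RNeasy Micro for embryos, miRNeasy for cultures) and source differ together between embryo and ES samples and cannot be told apart. Cyp26a1 read 6.34, 6.15 and 6.31 in foregut and 6.29, 5.94 and 6.18 in ENDM1-negative cells, against 8.17, 7.63 and 7.69 in ES cells at day 5. The differences were -1.57 ± 0.19 for foregut (adjusted p = 9.97e-05) and -1.70 ± 0.19 for ENDM1-negative cells (3.77e-05). Crabp1 was 1.95 ± 0.24 higher in foregut (0.000136) and 3.76 ± 0.24 higher in ENDM1-negative cells (7.23e-07), its ES day 5 arrays being 6.89, 7.66 and 7.93. Crabp2 was 1.74 ± 0.19 higher in foregut (5.04e-05) and 2.53 ± 0.19 higher in ENDM1-negative cells (2.02e-06). In all, 5 of the 9 genes were called in foregut, 4 higher and 1 lower, where 24.2% of all genes were, 14.7% higher and 9.42% lower. In ENDM1-negative cells 7 were called, 6 higher and 1 lower, where 26.3% of all genes were, 16.5% higher and 9.76% lower. Both comparisons share the ES arrays. Markers of other cell types differed as well. All 9 visceral endoderm and yolk sac markers were higher in foregut, with array means of 7.915 to 9.382, against 6.104 to 6.524 in ES cells at day 5. All 9 endothelial markers were higher in ENDM1-negative cells, with array means of 6.06 to 6.636, against 4.758 to 4.856, as were 5 of 9 surface ectoderm and neural crest markers. The part of these cells in the values of the 9 genes was not tested.

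Rarb was higher in foregut than in ES cells at day 5 by 1.23 ± 0.24 (adjusted p = 0.003), though the ES arrays, at 8.37, 7.22 and 7.29, were spread. In ENDM1-negative cells it differed by -0.31 ± 0.24 (adjusted p = 0.391). Stra6 was 0.57 ± 0.10 higher in foregut (0.0015) and differed by 0.13 ± 0.10 in ENDM1-negative cells (0.387). The smaller calls of ENDM1-negative cells against ES cells at day 5 were Aldh1a2 at 0.71 ± 0.19 (0.0124), Rdh10 at 0.52 ± 0.14 (0.0158), Dhrs3 at 0.34 ± 0.12 (0.0497) and Cyp26b1 at 0.28 ± 0.08 (0.0266). Aldh1a2 was 5.67, 5.37 and 6.20 in ENDM1-negative cells, against 5.00, 5.02 and 5.09 in ES cells, with no overlap. Dhrs3 was lost without any ENDM1-negative replicate or ES replicate 1 or 3 (adjusted p from 0.0534 to 0.176). It was also lost with all 30 arrays in 1 fit (0.162), with only the groups compared (0.0847), after further quantile normalization (0.084), with a common median (0.0725), with the probe set of largest spread (0.0502) and with an intensity trend (0.0505). Rdh10 was lost without ES replicate 1 (0.0579) or ENDM1-negative replicate 1 (0.055) or 2 (0.0611). Cyp26b1, below the array median on all 12 amplified arrays, was lost without ES replicate 2 (0.0812) or 3 (0.084) or ENDM1-negative replicate 1 (0.092) or 2 (0.0683), and with only the groups compared in the fit (0.0532).

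**Figure D5:**
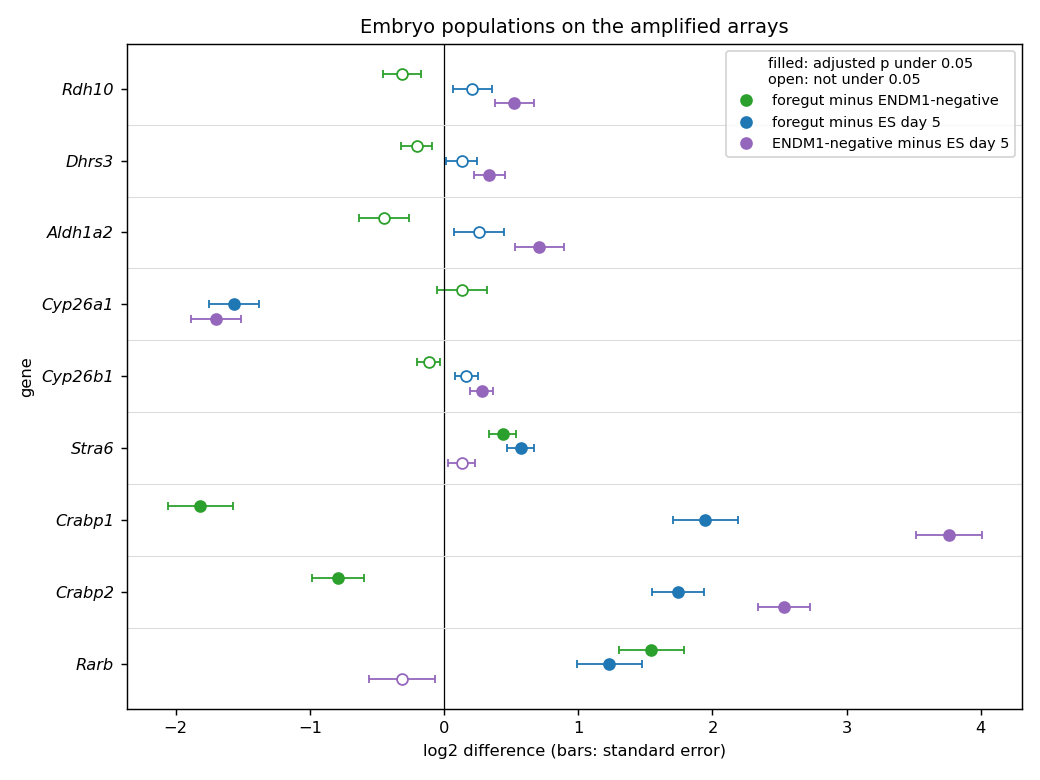
Log2 differences with their standard errors (horizontal axis) for each gene between foregut and ENDM1-negative cells and between each of them and amplified ES cells at day 5. Filled points passed an adjusted p of 0.05. Cyp26a1 is lower in both embryo populations than in ES cells, while Crabp1 and Crabp2 are higher in both.

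The wider retinoid pathway was read from 71 further genes: enzymes, binding proteins, receptors and genes known to respond to retinoic acid. At day 5, 20 rose and 15 fell in ST5, 15 rose and 11 fell in ST8 and 14 rose and 7 fell in ES cells, where 47.9%, 40.5% and 38.6% of all genes were called. Rbp4, the retinol carrier of the blood, rose by 4.81 ± 0.39 in ST5 (adjusted p = 4.55e-08), 3.49 ± 0.39 in ST8 (2.36e-06) and 2.26 ± 0.39 in ES cells (0.000206). Ttr, which holds Rbp4 in the circulation, rose by 4.44 ± 0.29 in ST5 (3.84e-09) and 2.32 ± 0.29 in ST8 (6.83e-06). On the amplified ES arrays Ttr rose by 2.80 ± 0.31 (2.04e-05). Its change on the unamplified ES arrays is not printed, since the 3 largest rises there were those of Gata6, Gata4 and Rbp4. Gata6 rose by 3.43 ± 0.45 (1.15e-05) and Gata4 by 2.39 ± 0.38 (8.71e-05), both listed as genes known to respond to retinoic acid. Of the 23 measured genes on that list, 5 rose and 1 fell in ES cells, where 18.9% of all genes rose. All 10 definitive endoderm markers rose there too, and the part of retinoic acid in the rise of Gata6 and Gata4 was not tested. Akr1b8, an aldo-keto reductase, fell, with differences of -2.09 ± 0.22 in ST5, -1.88 ± 0.22 in ST8 and -1.43 ± 0.22 in ES cells. Both Rbp4 and Ttr are also markers of visceral endoderm.

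At day 0, 2 of the 71 genes, Rxrg and Gbx2, were higher in ST5 than in ES cells, where 3.22% of all genes were called, and 1, Dhrs4, was lower in ST8, where 3.55% were. At day 5, 14 were higher and 11 lower in ST5 than in ES cells, where 23.3% of all genes were called. Ttr was 2.79 ± 0.29 higher (adjusted p = 4.72e-05) and Rbp4 2.42 ± 0.39 higher (0.00107), while Lrp2, an endocytic receptor for Rbp4, was lower by -2.02 ± 0.51 (0.0114). Rarg, a receptor of the same family as Rarb, was lower by -0.84 ± 0.25 (0.0268), opposite in sign to Rarb. In ST8 minus ES cells at day 5 limma called 0 of the 71, where 0.958% of all genes were called, and 13 had an unadjusted p under 0.05. The share of all genes under that unadjusted p is not given, so the 13 are not read as a result.

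In foregut, 18 of the 71 were higher and 5 lower than in ES cells at day 5, and in ENDM1-negative cells 24 were higher and 11 lower, where 24.2% and 26.3% of all genes were called. Of the genes known to respond to retinoic acid, 13 of 23 were higher and none lower in foregut, and 16 were higher and 3 lower in ENDM1-negative cells. Of all genes, 14.7% were higher in the first comparison and 16.5% in the second. The median difference of the 23 was 0.40 in foregut, against 0.08 over all genes, and 0.52 in ENDM1-negative cells, against 0.06. Meis2, a homeodomain factor, was 3.26 ± 0.11 higher in foregut (adjusted p = 3.62e-09) and 3.28 ± 0.11 higher in ENDM1-negative cells (3.25e-09). Its relative Meis1 was 3.04 ± 0.18 and 2.73 ± 0.18 higher in the same populations (4.12e-07 and 8.31e-07). Hoxa5, of the Hox genes that mark position along the body axis, was 1.76 ± 0.19 higher in ENDM1-negative cells (2.66e-05). Gata6, on the same list, was lower in ENDM1-negative cells by -1.51 ± 0.24 (0.000552). Posterior gut and Cdx markers were also higher, 6 of 7 in each population, and their part in these values was not tested. The 2 lists are not separate, since Cdx1 is on both.

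Between foregut and ENDM1-negative cells, 6 of the 71 were higher and 8 lower, where 8.14% of all genes were called. Ttr was 3.69 ± 0.31 higher (adjusted p = 1.56e-05) and Rbp4 2.85 ± 0.29 higher (7.61e-05). Of the 23 genes known to respond to retinoic acid, 3 were higher and 5 lower. Gata6 was 1.31 ± 0.24 higher (0.00534). Nr2f1, an orphan nuclear receptor, was lower by -0.90 ± 0.17 (0.00587), Hoxa5 by -0.81 ± 0.19 (0.018) and Tshz1, a zinc finger factor, by -0.78 ± 0.14 (0.00347).

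Over the 18 unamplified arrays, Rarb went most closely with Stra6 among the 9 genes (Pearson r of 0.971) and opposite to Crabp1 (-0.966). Over the 12 amplified arrays Rarb and Stra6 again had the closest tie among the 9 (r of 0.921), while Rarb and Crabp1 had -0.201. These values describe 6 and 4 groups more than independent samples, since arrays of a group share their condition. Among all genes, Irs4, Gckr and Plekhg3 were most like Rarb on the unamplified arrays (r from 0.996 to 0.998) and Pxdn, Prxl2a and Tmprss2 on the amplified ones (0.992 to 0.993). Dgkk, Lhx1 and Foxa2 were most like Cyp26a1 on the unamplified arrays (0.978 to 0.988), and Bmp2, Fzd7 and Pcdh7 on the amplified ones (0.974). Crabp2 was most like Myb, Rarg and Gng3 on the unamplified arrays (0.963 to 0.972). Stra6 was most like Rbm24, Tbx1 and Slc4a3 (0.981 to 0.982). No gene was among the 3 most like 1 of these members on both kinds of array.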

How the data were processed

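The deposited table holds log2 expression values, made by the authors with RMA per the submitters' processing notes, for 35556 probe sets on 30 arrays. The version of RMA, and whether both labellings were processed together, are not given in the sources used here. Array annotation named 1 gene for 21789 probe sets and several for 1621, and did not list 12146. Probe sets with 1 gene were kept, and for the 999 genes with several the one with the highest mean was used, which left 19938 genes. Groups follow the labels. With R 4.3.3 and limma 3.58.1, group means were fitted for the 18 unamplified arrays (12 residual degrees of freedom) and, apart from them, for the 12 amplified arrays (8), with moderated two-sided tests. P-values were adjusted over all 19938 genes (Benjamini-Hochberg), and 15 contrasts were made. SD is over the 3 arrays of a group and SE comes from the fit; no read depth exists for arrays, and their number limits the precision. The fit was tested on simulated data. The naming rule took the 9 genes and the 3 genes most like each of them. It also took the 3 largest called rises and falls among the other retinoid genes in each contrast. Only some of the genes it gave are printed. Hox and marker genes named besides were chosen after their values were seen. The 9 genes and the lists were chosen with earlier results of these data known. Replicate numbers were not used as pairs in the main fit: in no contrast were all 3 correlations of same-numbered arrays over 0.1. With 3 arrays a group, these correlations cannot exclude a pairing. The alternatives are given with their effects below.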

Additional observations from a re-analysis of the deposited data

Results flagged for a closer look

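The rise of Cyp26a1 from day 0 to day 5 differed between lines by a test of the difference itself. In ST5 it was smaller than in ES cells by a log2 difference of -1.723 (SE 0.456, limma adjusted p = 0.0376), and in ST8 by -2.567 (SE 0.456, adjusted p = 0.0112). Both values use the same ES arrays, whose day 0 signals near or below the array median limit how exactly these sizes can be read. Groups of 3 arrays were too small to test for outlying arrays.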

How the results depend on the processing

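The values of the 9 genes were recomputed 2328 times under the alternatives: 2203 kept direction and side of the threshold, 82 lost their call, 43 gained one and 0 called values reversed, while 67 that were called under neither setting changed sign. Of 1076 values of the other retinoid genes under the naming rule, printed or not, 947 kept their call and 129 lost it. The number of the 9 genes called changed by more than 1.5 times in the cases given here, and after further quantile normalization in none. With a least log2 difference of 1 it was 1 in ST8 minus ES at day 0 (2 as reported), 1 in ST5 minus ES at day 5 (3), 0 in ST8 minus ST5 at day 5 (1), 3 in amplified ES day 5 minus day 0 (5), 2 in foregut minus ENDM1-negative (4) and 3 in ENDM1-negative minus ES day 5 (7). With only the groups compared in the fit it was 2 in ST5 minus ES at day 0 (1) and 0 in ST8 minus ST5 at day 5. With all 30 arrays in 1 fit it was 1 in ST8 minus ES at day 0 and 3 in ST8 minus ST5 at day 5. With dim genes left out it was 1 and 3, the first because Aldh1a2 was among the genes left out and so was not tested. A common median gave 2 in ST8 minus ST5 at day 5. For the rise in ST5 minus that in ES cells, an intensity trend with robust spread gave 0 and the replicate number as a block gave 0 (1 as reported). The block also called Crabp2 in the amplified ES comparison (adjusted p = 0.0179) and changed no other call of the 9 genes. Without the 3 day 5 arrays that stood apart, chosen after the data were seen, the counts were 5 in ST5 minus ES and 1 in ST8 minus ES at day 5, 5 in ST8 minus ST5 at day 5, and 6 and 2 for the rises in ST5 and in ST8 minus that in ES cells.

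Leaving out 1 array at a time gave 1 to 2 in ST8 minus ES at day 0, 0 to 4 in ST5 minus ES at day 5, 0 to 1 in ST8 minus ES at day 5, 0 to 5 in ST8 minus ST5 at day 5, 0 to 3 and 1 to 2 for the rises in ST5 and in ST8, 2 to 4 in foregut minus ENDM1-negative and 4 to 6 in ENDM1-negative minus ES day 5. The cause of these changes was not tested. Over all genes, the counts called ranged, without leaving out single arrays, from 408 to 7692 in ST5 minus ES at day 5 (4653 as reported), 11 to 1796 in ST8 minus ES at day 5 (191), 3 to 6625 in ST8 minus ST5 at day 5 (2909), 222 to 5282 for the rise in ST5 minus ES (1112), 44 to 1231 for that in ST8 (167), 55 to 811 in ST5 minus ES at day 0 (643), 59 to 1719 in ST8 minus ES at day 0 (707), 1 to 23 in ST8 minus ST5 at day 0 (13) and 266 to 2467 in foregut minus ENDM1-negative (1623). With a least log2 difference of 1 they were 2210, 1437 and 1314 for day 5 minus day 0 in ST5, ST8 and ES cells (9560, 8074 and 7689), 933 in amplified ES cells (5354), 611 in foregut minus ES day 5 (4817) and 654 in ENDM1-negative minus ES day 5 (5236). Signal near background limits Aldh1a2, Cyp26b1, Rarb at day 0 and Cyp26a1 in ES cells at day 0, and 3 arrays a group limit every test.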
